A study of Mus musculus with 25 samples.

Results

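The 7 genes described here encode transcription factors that build the liver, the pancreas and the gut: Onecut1, Onecut2, Hhex, Prox1, Pdx1, Cdx2 and Cdx1. They were taken by name from the 20665 autosomal protein-coding records of the mouse genome, and for each the H3K27me3 peaks over the gene record and 5 kb on either side of it (its window) were measured in 3 peak lists. Onecut1 and Onecut2 are paralogous factors of hepatocyte, bile duct and pancreatic development. Hhex and Prox1 act in the early liver bud, and Prox1 is also the master factor of lymphatic endothelium. Pdx1 specifies the pancreas, Cdx2 the intestine and the trophoblast, and Cdx1 is a paralog of Cdx2 in the intestine and in axial patterning.

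H3K27me3 is the trimethylated form of a lysine of histone H3, written by Polycomb repressive complex 2 (PRC2) through its methyltransferase Ezh2. It lies over developmental regulator genes that a cell type does not use, often starting at CpG-rich promoters and spreading over the gene and its surroundings. Neither fibroblasts nor neural progenitors form liver, pancreas or gut, so the liver, pancreas and gut roles of these factors belong to lineages other than the cells profiled. Several of the factors, Onecut1, Onecut2 and Prox1 among them, also act in neurons or their precursors.

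The study asked whether silencing at Polycomb target genes is remembered after PRC2 activity is lost and restored, and its 25 libraries formed 13 groups. Immortalized mouse embryonic fibroblasts of lines A and B, both made with c-myc, gave 12 H3K27me3 ChIP-seq libraries, 2 for each condition. In line A these were Ezh2 -/- cells, Ezh2 -/- cells given Ezh2 by the retroviral vector pMSCV-Ezh2, and wild-type cells. In line B they were reversible Ezh2 -/- cells, cells with endogenous rescue of Ezh2, and wild-type cells. The neural progenitor cells (NPC) were wild type and made from embryonic stem cells. They were profiled in 6 libraries by CUT&RUN, a method that uses an antibody-guided nuclease to release marked chromatin. Of these, 2 came from cells treated with UNC1999 (2 uM) and A395 (4 uM), both inhibitors of PRC2, 2 from cells after washout of both, and 2 from untreated cells. The other 7 libraries, from line A, were an input and pairs for RNA polymerase II, H3K4me3 and H3K36me3; their labels give the genotype as Ezh2 -/-.

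The values come from 1 list of H3K27me3 peaks for line A (86235 peaks, median width 1420 bp), 1 for line B (81972 peaks, 1123 bp) and 1 for NPC (44807 peaks, 1458 bp). The peaks sum to 276.2 Mb in line A, 235.7 Mb in line B and 136.9 Mb in NPC. The lists hold positions without heights or depth, and the libraries that went into each are not stated in the sources used here. Ezh2 loss, rescue, inhibition and washout could therefore not be compared, and no difference between lists has a replicate error or a test. A stretch without a peak is not shown to lack the mark, and the fibroblast and NPC lists differ in cell type and also in assay. The cells' own marker genes were checked for peaks within 5 kb. Among 12 fibroblast markers a peak lay near 1 in line A (Col1a1, 0.893 kb), near 0 in line B and near 3 in NPC, where Pdgfrb had 57.9% of its window covered. For 12 neural progenitor markers the counts were 8 (line A), 9 (line B) and 3 (NPC); in NPC Sox1, Sox2, Pax6 and Nes had 0 bp.

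H3K27me3 peaks lay over most of these endoderm factor genes in fibroblasts, in blocks that took in the whole record of Pdx1 and Cdx2. In NPC the record of Cdx1 was 65.5% covered and that of Cdx2 48.7%, a peak lay at the far end of Pdx1 and beside the records of Onecut2 and Hhex, and none lay in the windows of Onecut1 and Prox1. At least 1 bp of peak was found in the window of 5 of the 7 genes by the line A list, 6 by line B and 5 by NPC. Over all autosomal protein-coding genes the shares were 40.2% for line A, 40.9% for line B and 31.9% for NPC. With 7 genes the exact binomial 95% intervals of the members' shares are wide (29.0 to 96.3% in line A and NPC, 42.1 to 99.6% in line B) and cover counting error only. The genes were chosen by name with earlier results of these data known, and Pdx1 and Cdx2 are neighbours. The intervals are therefore no test of the members against all genes. The lists differ more in how much of the window they cover. At least 50% was covered at 4 members for line A, 5 for line B and 1 for NPC, against 9.98%, 9.71% and 3.91% of all genes. The median covered share of the members was 72.0% for line A, 63.7% for line B and 4.22% for NPC, while the median over all genes was 0% in each list. Summed over the 7 windows (244.3 kb), peaks covered 121.8 kb in line A, 124.3 kb in line B and 24.7 kb in NPC, of which 18.04 kb lay at Cdx1 alone. As shares of the summed windows these are 49.8%, 50.9% and 10.1%, against 10.9%, 9.28% and 5.38% over the windows of all genes.

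**Figure D1:**
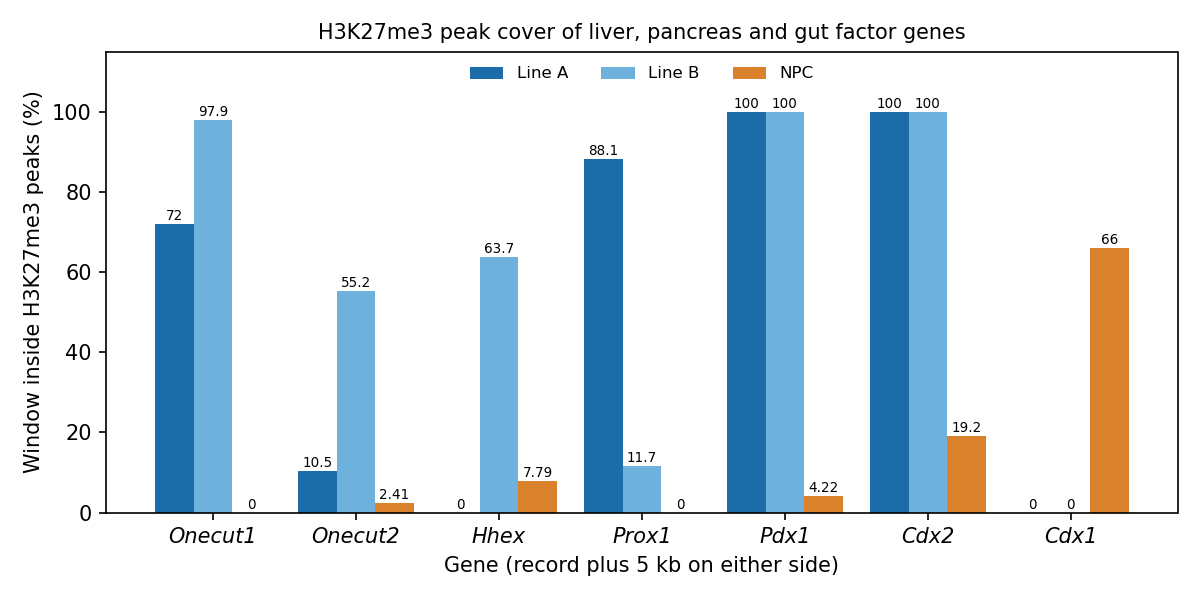
Percent of each gene's window (record plus 5 kb on either side) inside H3K27me3 peaks, 1 bar per peak list (line A, line B, NPC), with no error bar because each list is a single set of positions. Pdx1 and Cdx2 reach 100% in both fibroblast lists, Hhex and Prox1 differ between the fibroblast lines, and Cdx1 is covered only in NPC (66.0%).

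Every one of the 7 genes had a peak in at least 1 list, as did 55.2% of all genes, and 3 of them (Onecut2, Pdx1 and Cdx2) had one in all 3 lists, as did 19.5% of all genes. Line A covered more of the window than line B at 1 member (Prox1), less at 3 (Onecut1, Onecut2 and Hhex) and the same at 3 (Pdx1 and Cdx2 in full, Cdx1 at 0), where 23.8% of all genes had more bp covered in line A and 25.0% fewer. More bp were covered in line A than in NPC at 5 members and fewer at 2 (Cdx1 and Hhex), where 32.4% of all genes had more and 16.4% fewer. More bp were covered in line B than in NPC at 6 members and fewer at Cdx1, where 33.0% of all genes had more and 17.5% fewer. In each comparison the remaining genes were equal. Among all genes that differed, line A exceeded NPC at 6701 and fell below it at 3381. Line B exceeded NPC at 6816 and fell below it at 3625, so most differing genes went the same way as most members.

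In line A the order of the covered shares ran from Pdx1 and Cdx2 (100%) through Prox1 (88.1%), Onecut1 (72.0%) and Onecut2 (10.5%) to Cdx1 and Hhex (0%). In line B it ran from Pdx1 and Cdx2 (100%) through Onecut1 (97.9%), Hhex (63.7%), Onecut2 (55.2%) and Prox1 (11.7%) to Cdx1 (0%). In NPC the order was Cdx1 (66.0%), Cdx2 (19.2%), Hhex (7.79%), Pdx1 (4.22%) and Onecut2 (2.41%), with Onecut1 and Prox1 at 0%. No spread is known for any of these shares, so neighbours in an order are not shown to differ.

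Transcription starts and promoter sequences were matched in RefSeq tables of GRCm38.p6, the assembly of mm10, for 5 of the 7 genes (Onecut1, Hhex, Prox1, Pdx1 and Cdx2). The start lay inside a peak at 4 of these 5 in line A, all 5 in line B and 1 in NPC, against 12.6%, 13.9% and 8.93% of the 16457 genes with a start in the table. Hhex was the exception in line A, where the nearest peak lay 18241 bp from its start. Cdx2 was the gene whose start lay inside a peak in NPC. The 250 bases upstream of the start are shown for 4 genes whose starts differ in cover: Cdx2, with its start in a peak in every list; Pdx1, its neighbour, and Prox1, each with the start in a peak in both fibroblast lists; and Hhex, with the start in a peak in line B alone. They read 5′ to 3′ on the gene's strand, with each CG dinucleotide in capitals.
Cdx2, chr5:147307250-147307499, minus strand: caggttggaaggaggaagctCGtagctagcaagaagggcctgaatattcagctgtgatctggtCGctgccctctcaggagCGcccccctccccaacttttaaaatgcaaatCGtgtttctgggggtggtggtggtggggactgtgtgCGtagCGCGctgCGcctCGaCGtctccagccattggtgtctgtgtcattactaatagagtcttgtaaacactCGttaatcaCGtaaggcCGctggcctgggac
Pdx1, chr5:147269847-147270096, plus strand: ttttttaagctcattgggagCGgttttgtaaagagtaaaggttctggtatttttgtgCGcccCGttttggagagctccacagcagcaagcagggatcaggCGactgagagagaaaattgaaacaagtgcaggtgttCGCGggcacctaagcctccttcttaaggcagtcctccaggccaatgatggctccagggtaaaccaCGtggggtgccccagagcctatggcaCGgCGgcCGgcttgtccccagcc
Prox1, chr1:190170828-190171077, minus strand: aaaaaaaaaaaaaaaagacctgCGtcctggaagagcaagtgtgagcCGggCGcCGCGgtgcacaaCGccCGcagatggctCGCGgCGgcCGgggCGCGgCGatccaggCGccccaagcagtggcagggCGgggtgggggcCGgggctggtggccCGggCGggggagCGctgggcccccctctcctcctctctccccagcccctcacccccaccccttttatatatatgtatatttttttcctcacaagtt
Hhex, chr19:37434591-37434840, plus strand: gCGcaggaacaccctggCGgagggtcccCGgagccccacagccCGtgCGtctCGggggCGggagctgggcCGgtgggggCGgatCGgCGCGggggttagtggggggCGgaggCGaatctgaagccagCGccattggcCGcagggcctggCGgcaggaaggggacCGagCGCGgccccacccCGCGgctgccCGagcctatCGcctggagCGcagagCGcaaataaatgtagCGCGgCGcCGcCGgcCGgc

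The Hhex sequence holds 32 CG dinucleotides, more than 94.3% of the 16457 upstream windows of the same length, and the Onecut1 sequence 31 (more than 93.5%). Prox1 holds 20 (more than 76.0%), Cdx2 13 (more than 56.2%) and Pdx1 10 (more than 48.2%), where the median window holds 10 and 93.0% hold at least 1. CG reads the same on both strands. Of these 5 genes, Hhex, with the most CG, had its start in a peak in line B alone. Onecut1, with 31, and Pdx1, with the fewest, had theirs in a peak in both fibroblast lists, as did Prox1 and Cdx2. A link between CG and cover at the members was not tested. Over all genes, windows whose start lay in a peak had a median of 5 CG for line A, 7 for line B and 9 for NPC, against 11, 11 and 10 for the rest.

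Onecut1 (NCBI gene 15379, chromosome 9, 74861921 to 74889648, mm10) was covered in both fibroblast lines and not in NPC. Peaks covered 27.2 kb of its 37.7 kb window in line A, 36.9 kb in line B and 0 kb in NPC. In line B a single peak of 49.4 kb, wider than 99.8% of the list, ran from 22.0 kb below the record to 27.3 kb inside it. In line A a 26.1 kb peak covered the start and 4 narrower peaks lay over the rest of the gene. Of the line A cover in the window, 97.1% also lay in line B peaks. With gaps between peaks of less than 3 kb closed, the outer edges of the covered regions in line A and line B differed by 1.55 kb on the low side and 0.256 kb on the high side. The record nearest above, Fam214a, 63.2 kb away, had 0 bp covered within 5 kb in every list. The record nearest below, Wdr72, 578.7 kb away, had 0 kb of its window covered in line A, 0.763 kb in line B and 0 kb in NPC. The nearest NPC peak lay 9.74 kb below the Onecut1 record.

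Onecut2 (NCBI gene 225631, chromosome 18, 64340032 to 64398488) had its window covered mainly in line B. Peaks covered 7.17 kb of its 68.5 kb window in line A, 37.8 kb in line B and 1.65 kb in NPC. Most of the line A cover lay outside the gene: the low 5 kb flank was 84.4% covered and the record 5.05%. In line B the same flank was fully covered and the record 55.7%, and the widest peak spanned 47.8 kb. Over the whole window line B had 11 peaks, the last of them 4618 bp above the record. Farther out the fibroblast lines were alike: of the 50 kb on either side of the record, 51.8% was covered in line A and 51.6% in line B. A joined line A region of 52.8 kb reached into the low end of the gene. The joined line B region ran for 163.7 kb and also took in St8sia3, a sialyltransferase gene whose window was 61.5% covered for line A, 92.8% for line B and 16.1% for NPC. On the other side Fech, the ferrochelatase gene of haem synthesis, had 0 bp covered in every list. The NPC peak at Onecut2, 2.03 to 3.67 kb below the record, lay wholly inside peaks of both fibroblast lists.

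Hhex (NCBI gene 15242, chromosome 19, 37434841 to 37440731) was covered in line B alone of the fibroblast lines. Its 15.9 kb window held 0 kb of peak in line A, 10.1 kb in line B and 1.24 kb in NPC. The line B cover was tight around the gene: 97.7% of the record, 48.2% of the 5 kb below it, 39.1% of the 5 kb above it and 9.16% of the surrounding 50 kb on both sides. The NPC peak lay 0.637 to 1.87 kb before the start, inside the line B peak and outside the record. Kif11, a mitotic kinesin gene 13.0 kb below, had 0 bp covered in every list. Exoc6, an exocyst gene 96.0 kb above, had 3.83% of its window covered for line A, 2.74% for line B and 3.42% for NPC. In line A the nearest peak to the Hhex record was 12.4 kb away.

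Prox1 (NCBI gene 19130, chromosome 1, 190118035 to 190170827) had more cover in line A than in line B, the other way round from Hhex. Unlike Hhex, it had peaks in both fibroblast lists. Its 62.8 kb window held 55.3 kb of peak in line A, 7.33 kb in line B and 0 kb in NPC. In line A 7 peaks, the widest of 27.3 kb, lay in the window and 90.1% of the record was covered; the joined region spanned 99.4 kb. In line B the joined region spanned 8.13 kb around the transcription start. All of the line B cover lay inside line A peaks, where it made up 13.2% of the line A cover. Prox1 stands alone: the nearest records, Smyd2 (195.5 kb below) and Rps6kc1 (602.1 kb above), had 0 bp covered in every list. The nearest NPC peak lay 18.4 kb below the record.

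**Figure D2:**
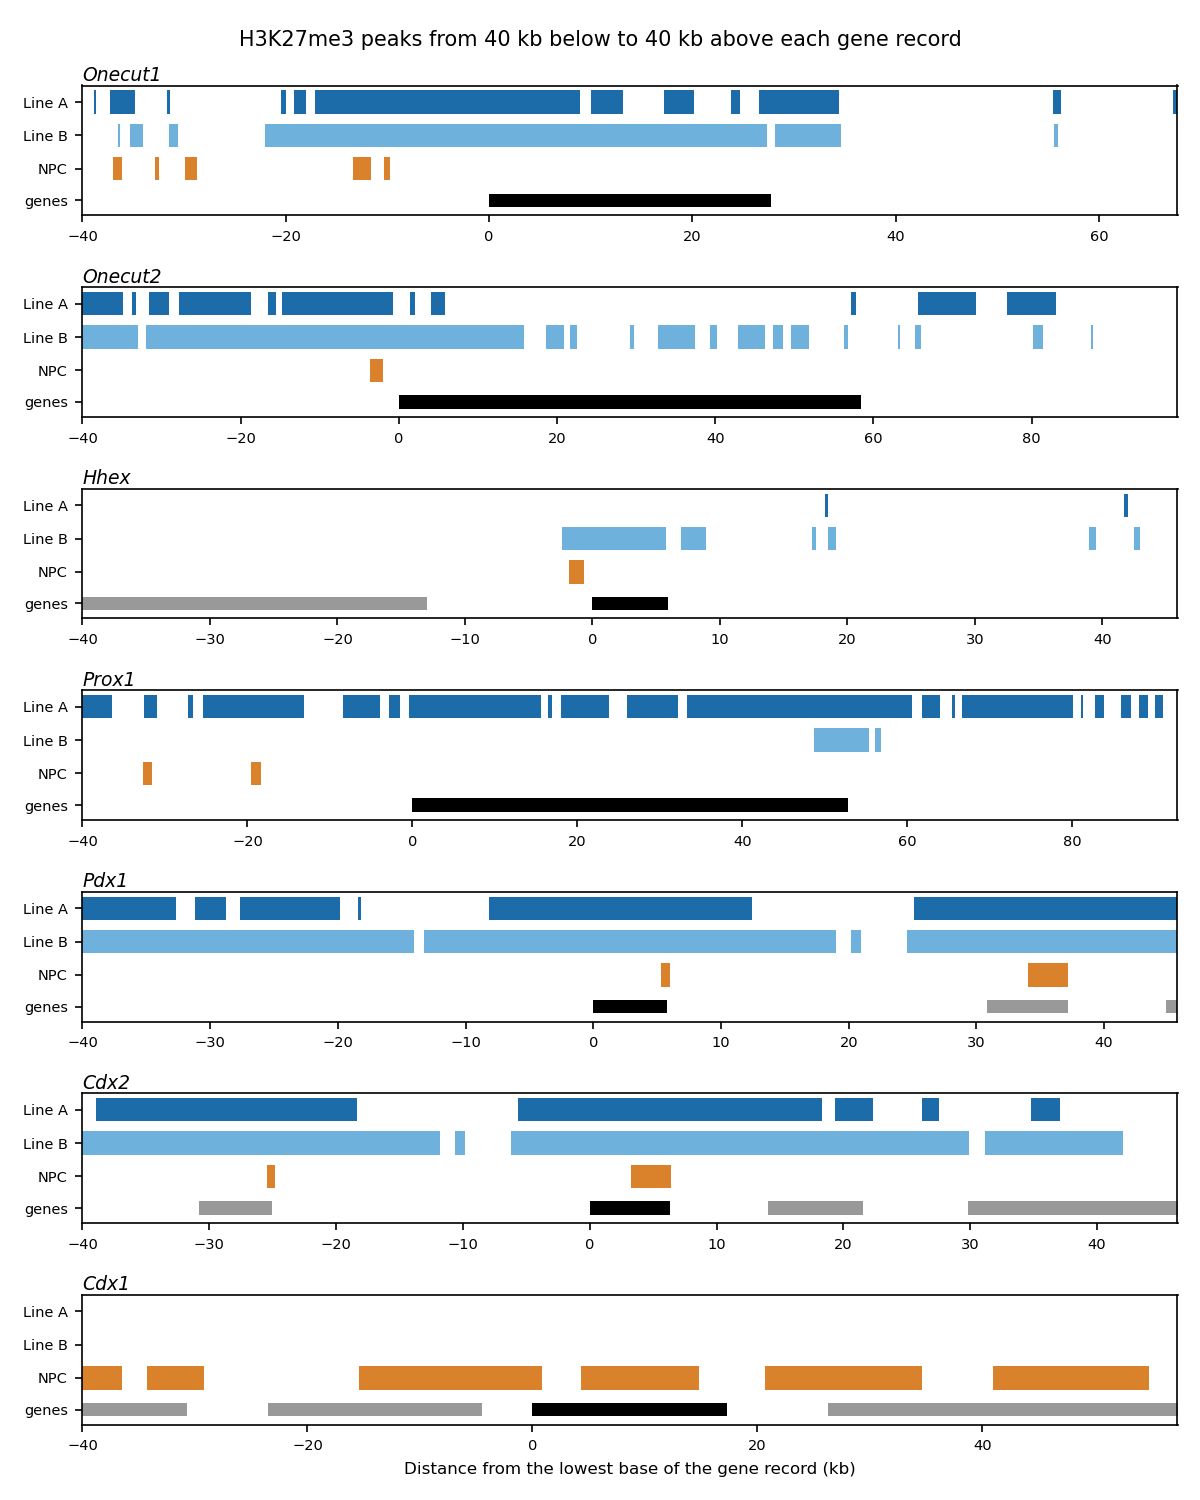
H3K27me3 peaks (coloured bars: line A, line B, NPC from top to bottom) from 40 kb below to 40 kb above each gene record, in kb from the record's lowest base; the named gene is black and neighbouring records grey. Onecut1 is covered over 98.6% of its record in line B, Prox1 mainly in line A, and Hhex in line B with no line A peak over the gene.

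Pdx1 and Cdx2 were the members with full cover in fibroblasts. They lie 25.1 kb apart on chromosome 5 (Pdx1, NCBI gene 18609, 147270097 to 147275848; Cdx2, NCBI gene 12591, 147300900 to 147307249) with Gsx1, a factor gene of forebrain and spinal interneurons, in the ParaHox cluster, an ancient sister of the Hox clusters. The 15.8 kb Pdx1 window was covered in full by both fibroblast lists, and over 0.665 kb in NPC. The 16.4 kb Cdx2 window was likewise covered in full by both, and over 3.14 kb in NPC. Full cover placed both genes above 99.3% of all genes for line A and 98.8% for line B. A single peak held each gene in each fibroblast list: 20.6 kb in line A and 32.2 kb in line B at Pdx1, and 24.0 kb in line A and 36.1 kb in line B at Cdx2.

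The gap between the Pdx1 and Cdx2 regions was 12.7 kb in line A and 3.65 kb in line B after joining. From the low end of Gsx1 to the high end of Cdx2 (147188696 to 147307249, 118.6 kb), peaks covered 63.5% for line A, 90.6% for line B and 7.10% for NPC. Gsx1 itself was covered in full by both fibroblast lists and over 6.04% of its window in NPC. Gsx2, its paralog elsewhere on chromosome 5, was also covered in full by both and over 39.2% in NPC. Above Cdx2 the cover went on over Urad, a uric acid pathway gene (72.3% of the window in line A, 100% in line B, 0% in NPC), and thinned over Flt3, a receptor gene of blood progenitors (13.8% in line A, 61.4% in line B, 1.80% in NPC). On the low side of Cdx2 the region began within 0.528 kb of the same place in both lines.

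In NPC the Cdx2 peak (147304157 to 147307297) covered 48.7% of the record and ended 48 bp past the transcription start. The Pdx1 peak lay at the far end of the gene, 5.33 kb from the start. Both lay wholly inside peaks of both fibroblast lists. Of the 7 NPC peaks in the windows of all members, 3 lay wholly inside line A peaks and 4 inside line B peaks, and the 3 at Cdx1 lay inside neither. Over the whole NPC list 23.8% of peaks lay wholly inside line A peaks and 20.0% inside line B peaks.

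Cdx1 (NCBI gene 12590, chromosome 18, 61018862 to 61036199) differed from its paralog Cdx2 in the fibroblast lists, where Cdx2 was covered in full. In NPC both genes had peaks, over 65.5% of the Cdx1 record and 48.7% of the Cdx2 record. Peaks covered 0 kb of its 27.3 kb window in line A, 0 kb in line B and 18.04 kb in NPC, a larger share than at 97.7% of all genes in NPC. The nearest peak lay 78.9 kb from the record in line A and 77.7 kb in line B. In NPC 3 peaks of 16.3, 10.5 and 13.9 kb reached into the window. The first and second covered 65.5% of the record and all of the 5 kb below it, and the 13.9 kb peak began 3310 bp above the record. The second peak ended at 61033656 and the third began at 61039509, so the high end of the record (61036199) had no peak. No transcription start was matched for Cdx1, so whether its start lay in a peak was not measured. The nearest records on either side of Cdx1 also had peaks in NPC alone. Slc6a7, a proline transporter gene of neurons 4.45 kb below, had 54.9% of its window covered in NPC. Pdgfrb, a growth factor receptor of fibroblasts and pericytes 8.93 kb above and 1 of the 12 fibroblast markers, had 57.9% covered in NPC. Both had 0% in line A and line B. Windows of these neighbours overlap that of Cdx1, so they share peaks with it. From the low end of Arsi to the high end of Pdgfrb (60911991 to 61085067, 173.1 kb), which also holds the neuronal kinase gene Camk2a, peaks covered 0.634% for line A, 0% for line B and 75.9% for NPC.

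**Figure D3:**
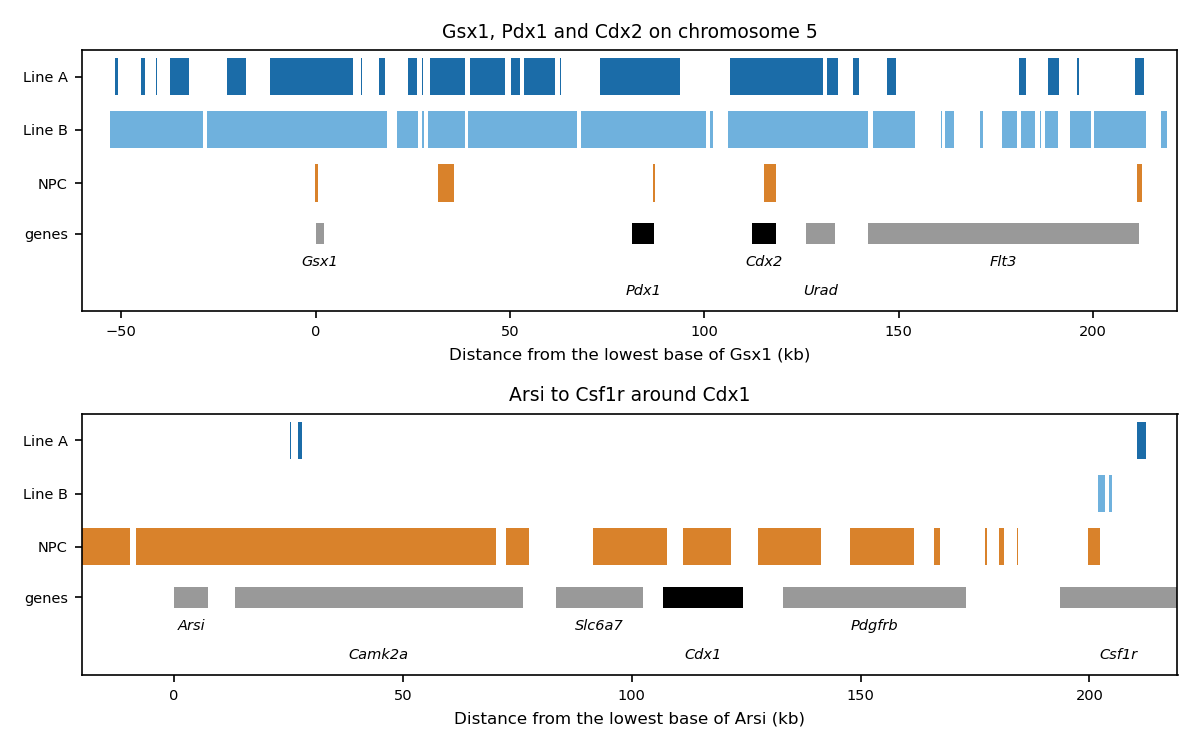
H3K27me3 peaks of line A, line B and NPC (coloured bars, top to bottom) around Pdx1 and Cdx2 (upper panel, kb from the lowest base of Gsx1) and around Cdx1 (lower panel, kb from the lowest base of Arsi); members are black, other protein-coding records grey, and 1 predicted gene is left out. Line B peaks fill 90.6% of the stretch from Gsx1 to Cdx2, and NPC peaks 75.9% of that from Arsi to Pdgfrb.

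Other factor genes of the same organs had peaks in fibroblasts as well, and are given beside 40.2% of all genes for line A, 40.9% for line B and 31.9% for NPC. Peaks lay near 14 of 18 further liver factor genes in each fibroblast line and near 10 in NPC, with median covered shares of 32.5%, 22.9% and 1.33%. Those with the most covered kb summed over the 3 lists, a ranking in which long genes can hold more, were Nr5a2, a nuclear receptor of liver and pancreas (88.2% in line A, 41.7% in line B, 1.11% in NPC), Hnf4a, the hepatocyte nuclear receptor (65.6%, 40.0% and 12.7%), and Gata4, an early endoderm factor (77.6%, 0% and 30.1%). The remaining Onecut paralog, Onecut3, had 86.3% covered for line A, 86.2% for line B and 75% for NPC, where Onecut1 had 0% and Onecut2 2.41%. Cebpa and Cebpb, basic leucine zipper factors of hepatocytes that also act in adipocytes and other mesenchymal cells, had no peak in any list.

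Peaks lay near 15 of 18 pancreas factor genes in each fibroblast line and near 13 in NPC, with median covered shares of 70.9%, 68.9% and 38.8%. Isl1, a factor of islets and motor neurons, was covered in full in all 3 lists. Rfx6, an endocrine factor, had 5.01% covered for line A, 5.80% for line B and 87.7% for NPC, and Pax6, a factor of islets and of neural progenitors, had 68.2%, 74.3% and 0%. Glis3, Bhlha15 and Sox9 had no peak in any list; Sox9 is also a factor of cartilage and neural stem cells. Peaks lay near 13 of 15 gut factor genes in each fibroblast line and near 4 in NPC (26.7%, below the share of all genes), with medians of 13.4%, 65.2% and 0%. Nkx2-3, of gut mesenchyme, was covered in full in both fibroblast lists and over 89.6% in NPC. Gfi1, of secretory cells, was covered in full in both fibroblast lists and over 0% in NPC, and Prdm1, of the fetal gut epithelium, over 9.61% for line A, 69.6% for line B and 0% for NPC.

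Genes that carry out the functions of these organs had peaks as well. Pooled over the organs, peaks lay near 27 of 42 such genes for line A (64.3%), 29 for line B (69.0%) and 18 for NPC (42.9%), against 42, 42 and 27 of the 51 further factor genes (82.4%, 82.4% and 52.9%) and 40.2%, 40.9% and 31.9% of all genes. The pooled median covered share of the 42 was 14.2% for line A, 15.0% for line B and 0% for NPC, against 54.9%, 40.0% and 1.11% for the factors, but the order differed by organ. Of 14 liver genes 11 had a peak for line A, 11 for line B and 10 for NPC, and their medians (43.4%, 35.7% and 10.1%) were above those of the liver factors in every list. Those with the most covered kb were Cps1, a urea cycle enzyme gene (21.1% for line A, 41.1% for line B, 27.4% for NPC), Apob, the lipoprotein gene (66.7%, 5.52% and 62.6%), and Alb, the serum albumin gene (90.7%, 96.2% and 9.86%). Cyp3a11, a cytochrome P450 gene, had no peak in any list.

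Peaks lay near 7 of 14 pancreas genes for line A (50%), 9 for line B (64.3%) and 3 for NPC (21.4%, below the share of all genes), with medians of 1.45%, 6.16% and 0%. The prohormone convertase gene Pcsk1 had 0% covered for line A, 62.9% for line B and 0% for NPC. The hormone genes Sst and Ppy had at least 70.4% covered in every list, while Ins1, Gcg and Iapp and the enzyme genes Cpa1 and Ctrb1 had no peak in any. Peaks lay near 9 of 14 gut genes for line A, 9 for line B and 5 for NPC (35.7%), with medians of 18.6%, 9.13% and 0%, of which that for line A was above the gut factors' and that for line B below. The glucose transporter gene Slc5a1 had 96.7% covered for line A, 98.1% for line B and 30.7% for NPC. Krt20, a keratin gene of the gut epithelium, had 75.5%, 76.7% and 59.0%, and Muc2, the goblet cell mucin gene, 14.8%, 6.23% and 21.5%. The enterocyte genes Fabp2, Sis and Lct had no peak in any list. Some of these genes lie in clusters and share peaks, and the lists were chosen with earlier results of these data known.

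**Figure D4:**
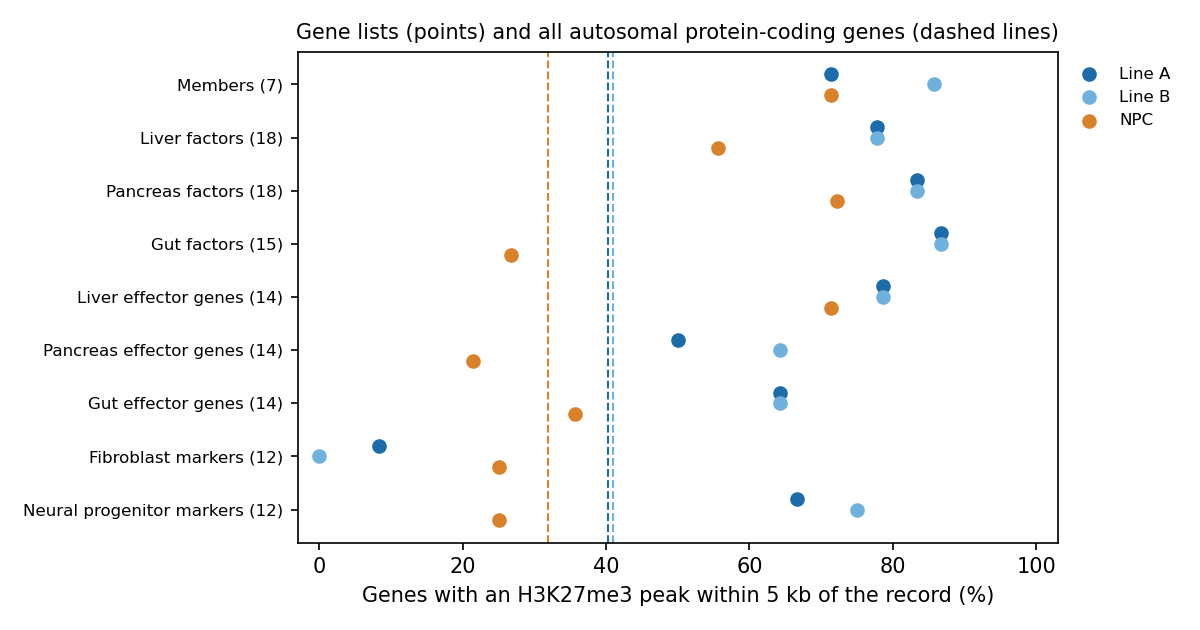
Percent of genes with an H3K27me3 peak within 5 kb of the record (x axis) for the 7 members and 8 gene lists (rows, number of genes tested in brackets), as points for line A, line B and NPC, with dashed lines at the shares of all autosomal protein-coding genes (40.2%, 40.9% and 31.9%). In the fibroblast lists, the members and all plotted lists except the fibroblast markers lie right of the dashed lines; in NPC the gut factors (26.7%), the pancreas effector genes (21.4%) and both marker lists (25% each) lie left of the line.

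The genes whose covered shares in the 3 lists lay nearest to the members' median (72.0% in line A, 63.7% in line B, 4.22% in NPC) were Sbp, Rab15, Nynrin, Dscaml1 and Eomes. Their distances from it were between 3.33 and 4.25 percentage points (Euclidean distance over 3 lists). The medians are the values of different members (Onecut1 in line A, Hhex in line B, Pdx1 in NPC), so no member itself has this profile. Eomes, a T-box factor of early mesoderm and endoderm and of neural precursors, had 72.1% covered for line A, 63.2% for line B and 0% for NPC.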

How the data were processed

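The authors deposited 3 H3K27me3 peak lists of 3 columns (chromosome, start, end; 0-based starts) with no score, height or depth. Positions are printed 1-based. Bowtie2 2.2.9, MACS2 2.1.1.20160309, Picard, DESeq2, deepTools and the builds mm10 and dm6 are named, per the submitters' processing notes, with no role. The peak threshold, the control and any pooling are not stated in the sources used here. In this text each list is called by its cell system. The deposited names of the fibroblast lists carry further labels, which were not used to assign libraries.

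Covered bp were computed with Python 3.11.15 and NumPy 2.4.6 over RefSeq records (GRCm38.p6) plus 5 kb on either side. Peaks less than 3 kb apart were joined for regions. A gene had a peak with at least 1 bp covered. Intervals are exact binomial at 95% (SciPy 1.17.1). The coverage code was tested on simulated data. Of 125 listed symbols 123 matched autosomal genes; 2 lie on the X chromosome. No test was made, since each cell system has 1 list. Members and gene lists were chosen with earlier results of these data known. Named genes are the members, neighbours and genes of joined regions, the 5 genes nearest in pattern, and in each organ and ParaHox list the 3 with the most covered kb summed over the peak lists and, where 5 or fewer, those without a peak. Genes outside this rule (Onecut3, Arsi, Camk2a and the cells' marker genes) were named after their values were seen. Alternatives changed the window, the cover required, the peaks used and their joining.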

Additional observations from a re-analysis of the deposited data

How the results depend on the processing

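No paired analysis was possible because the peak lists hold no value per library, and no replicate could be left out for the same reason. In line A and line B the number of members with a peak stayed within 1.5 times its value under all 9 alternatives. The share of all genes ranged from 9.98% to 49.5% in line A and from 9.71% to 49.7% in line B. In NPC 5 members had a peak (31.9% of all genes), against 3 with the record alone (22.3%). With at least 10% of the window covered 2 did (16.3% of all genes), and with at least 50% covered 1 did (3.91%). Within 1 kb of the transcription start 2 of 5 did (13.7%). The NPC share of all genes thus fell along with the count of members. The members' median covered share in NPC (4.22%) was 0% with the record alone, 6.82% with 2 kb around it, 2.58% with 10 kb and 2.41% with peaks of at least 1 kb; in line B (63.7%) it was 97.7% (the value of Hhex) with the record alone. The 6 alternatives that change the window or the peaks were also run on single genes, and of 126 such values 106 stayed within 1.5 times. The depth behind the lists is unknown, and its part in the shorter cover of NPC was not tested.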
